A study of Mus musculus with 12 samples.

Results

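The miR-23, miR-27 and miR-24 microRNAs of the mouse are made from a pair of clusters of hairpins, here called the a cluster and the b cluster. They were followed on 12 single-colour miRNA arrays of mouse embryonic fibroblasts. The members were all non-control spots that the array design assigns to mmu-miR-23a, mmu-miR-23b, mmu-miR-27a, mmu-miR-27b or mmu-miR-24, which gave 5 of the 650 miRNAs on the array, and all 5 were among the 175 that were tested. The knockout cells lacked ATF6a (labelled KO here), and the wild type cells (WT) carried it. Both were embryonic fibroblasts of the C57BL/6 background, and cells of both genotypes were cultured without treatment or with 2 ug/mL tunicamycin for 12 or 24 h. Each of the 6 groups had 2 arrays, from experiments that the study describes as independent, and each array took 100 ng of total RNA.

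ATF6a is a transcription factor held in the membrane of the endoplasmic reticulum. When unfolded proteins accumulate there it is cut free and enters the nucleus, where it switches on chaperone genes. Tunicamycin blocks N-linked glycosylation and so causes unfolded proteins to accumulate. A miRNA pairs with messenger RNAs mainly through its seed, near its 5′ end, and lowers the output of those messages. miRNAs of 1 cluster are cut from a shared primary transcript, so they are often found at levels that move together. In the literature, members of the miR-23 and miR-24 families have been linked to growth and survival of cells, and miR-27 to the control of fat cell formation and lipid metabolism.

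In RefSeq's annotation of GRCm38.p6, the a cluster spans chr8:84208518-84208921 on the plus strand, with the hairpins Mir23a, Mir27a and Mir24-2 in 404 bases. The b cluster spans chr13:63300484-63301275 on the plus strand, with Mir23b, Mir27b and Mir24-1 in 792 bases. It lies inside the span of the gene Aopep, an aminopeptidase gene that runs from chr13:62964893 to 63326096. The gene table used here gives spans without exons. Mature sequences were found in the RefSeq table for 4 of the 5 members, and miR-23b is given by name. The sequences are shown because they decide which members the array can assign to a cluster, and capitals mark the seed, bases 2 to 8.
miR-23a: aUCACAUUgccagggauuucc
miR-27a: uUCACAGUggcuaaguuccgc
miR-27b: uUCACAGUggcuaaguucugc
miR-24: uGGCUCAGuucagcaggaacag
miR-24-1*: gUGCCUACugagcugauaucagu
miR-24-2*: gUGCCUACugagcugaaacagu
miR-27a and miR-27b share their seed and differ by C19U, with positions counted from 1 at the 5′ end. miR-24 has the same mature sequence from Mir24-2 of the a cluster and Mir24-1 of the b cluster, so its signal belongs to both clusters. Its passenger strands, the other arms of those hairpins, do differ: miR-24-1* comes from the b cluster and miR-24-2* from the a cluster. How far each probe tells miR-23a from miR-23b, or miR-27a from miR-27b, was not tested.

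Values are log2 of the spot signal after each array was divided by a percentile of its own well-detected probes, so 0 stands for a signal equal to that percentile. Probes differ in brightness, so values are compared between arrays for 1 miRNA and not between miRNAs. Differences are given ± SE from limma over 6 group means, and p-values are adjusted by Benjamini-Hochberg over the 175 tested miRNAs, with 0.05 as the threshold. The arrays had 73 to 166 miRNAs well above background, and the 4 second treated arrays, scanned together as run 4, had the fewest, 73 to 101. The 4 untreated arrays shared 1 slide and the 8 treated arrays the other, so the slide cannot be told apart from the treatment. On each slide the knockout arrays lay in 1 row and the wild type arrays in the other, so genotype and position on the slide cannot be told apart either. Of 6 fibroblast and mesenchymal marker miRNAs, 4 (miR-199a-3p, miR-199a-5p, miR-214 and miR-21) were well above background on all 12 arrays, and miR-145 was so on none. The epithelial, blood, endothelial, neural and liver markers listed were well above background on no array. The pluripotency marker miR-294 passed on 2 arrays and the muscle marker miR-206 on 3. At 12 h the summed scaled signal of the 5 pluripotency markers was 0.0285 to 0.258 in knockout and 0.0241 to 0.176 in wild type cells. That of the 3 muscle markers was 0.0174 to 0.175 and 0.0103 to 0.119, so both sums differed widely between replicate arrays. The arrays carry no probe for the ATF6a message, so the genotype labels were not checked. In RNA from whole cultures, fewer cells of a kind and less RNA per cell cannot be told apart.

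Averaged over the conditions, miR-23b and miR-27b, the b cluster's own members, were higher in ATF6a knockout cells than in wild type cells. In untreated cells miR-23b was not called, and 5 other scaling, summary and background settings kept none of the genotype calls of either miRNA. miR-23a and miR-27a, their relatives in the a cluster, were not called for genotype in any condition, and neither was miR-24. In wild type cells miR-23b fell under tunicamycin at both times and miR-27b at 12 h, calls that some other processing did not keep. In knockout cells no member passed the threshold, which by itself is no test of a difference between genotypes. Tested directly, the responses differed for miR-23b at 24 h alone, a call lost in 20 of 27 alternatives. The plot of values by array shows all 12 arrays for each member.

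**Figure D1:**
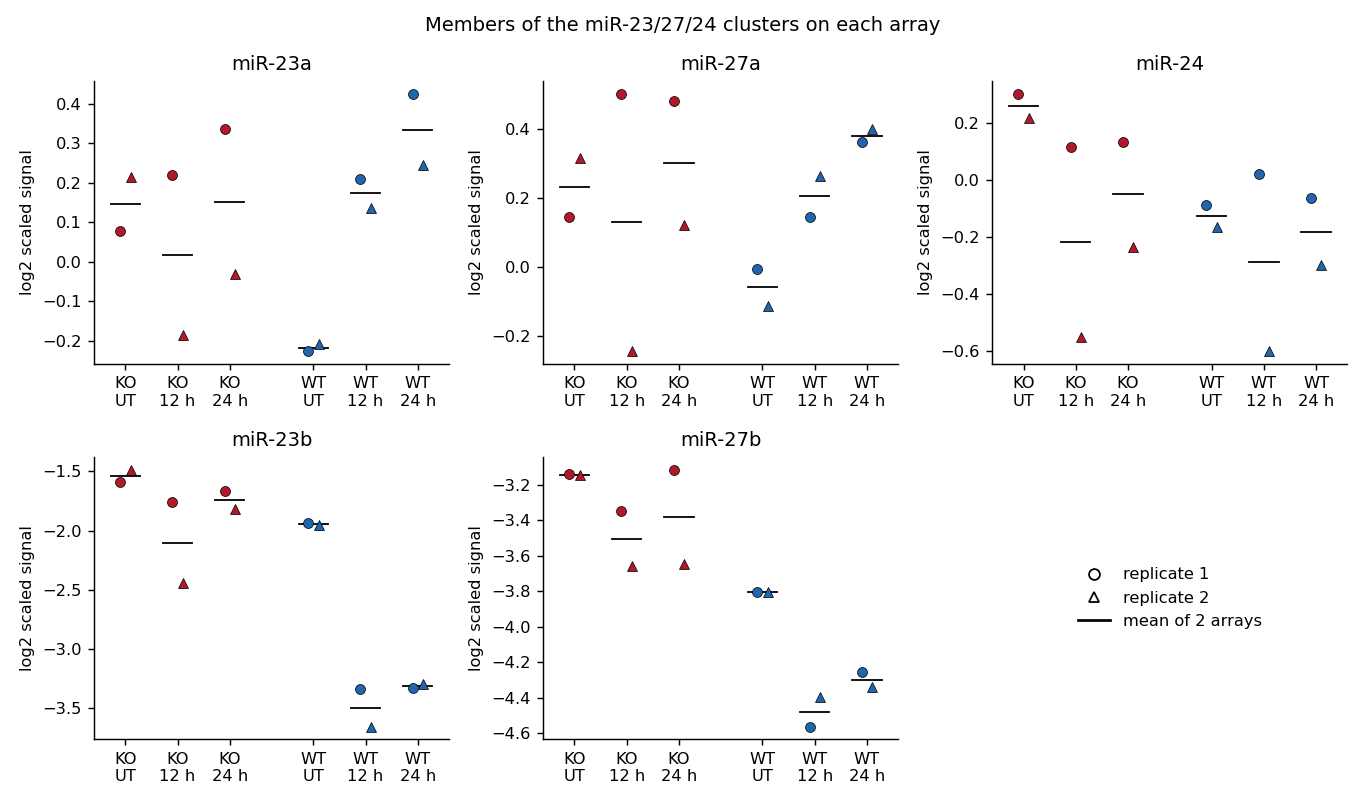
log2 scaled signal (vertical axis, a separate scale in each panel) of the 5 miRNAs on each array, for untreated (UT), 12 h and 24 h knockout (KO, red) and wild type (WT, blue) cells; circles and triangles are replicates 1 and 2 and bars are means of 2 arrays. For miR-23b and miR-27b every knockout array lies above both wild type arrays of the same condition, whereas the treated arrays of miR-23a, miR-27a and miR-24 overlap between genotypes.

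miR-23b is the b cluster's form of miR-23. In knockout cells it stood at -1.59 and -1.49 untreated, -1.76 and -2.44 at 12 h, and -1.66 and -1.81 at 24 h. Wild type cells had -1.93 and -1.95 untreated, -3.34 and -3.65 at 12 h, and -3.33 and -3.30 at 24 h. The 4 treated wild type arrays were far below the other 8, and the genotypes did not overlap in any condition. Knockout minus wild type was 1.39 ± 0.21 at 12 h (limma, adjusted p = 0.00666), a 2.63-fold higher signal in knockout cells. At 24 h it was 1.57 ± 0.21 (limma, adjusted p = 0.00309), or 2.97-fold. Untreated cells differed by 0.41 ± 0.21, short of the threshold (limma, adjusted p = 0.224). Without the first or the second knockout array of the 12 h group, which enter the shared estimate of the spread, the untreated difference passed (limma, adjusted p = 0.0311 either way).

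miR-27b is the b cluster's form of miR-27. In knockout cells its values were -3.14 and -3.14 untreated, -3.35 and -3.66 at 12 h, and -3.12 and -3.65 at 24 h. Wild type cells had -3.81 and -3.80 untreated, -4.56 and -4.40 at 12 h, and -4.26 and -4.34 at 24 h. Knockout arrays were again above wild type arrays in every condition without overlap. Knockout minus wild type was 0.66 ± 0.18 untreated, 0.98 ± 0.18 at 12 h and 0.92 ± 0.18 at 24 h, with limma adjusted p-values of 0.0277, 0.0164 and 0.0152. The signal floor limits these sizes, so no fold is given: with the brighter probe alone they were 0.62, 1.43 and 1.54, with limma adjusted p-values of 0.0681, 0.00502 and 0.00258. miR-27b was dim: a probe of it was well above background on 10 of 12 arrays, and on neither second treated wild type array. Its dimmer probe was used because it was well above background on both untreated knockout arrays, and no other group met this rule. The untreated call thus leans on a probe admitted by its knockout signal, and the brighter probe alone did not give it.

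The probes of each b cluster miRNA can be read apart. The brighter miR-23b probe had scaled signals of 0.356 to 0.599 in knockout and 0.152 to 0.201 in wild type cells at 12 h, and the dimmer one 0.0949 to 0.145 in knockout and 0.0415 to 0.0486 in wild type cells. Averaged over the conditions, these probes gave a knockout minus wild type log2 difference of 1.13 and 1.12, so they moved alike. The brighter one was well above background on all 12 arrays and the dimmer one on 9. The dimmer one was not so on the second 12 h array of either genotype or the second 24 h wild type array. For miR-27b the brighter probe gave 1.20 and the dimmer one 0.51. The dimmer miR-27b probe lay at the signal floor of 0.0309 on 7 of 12 arrays, all 6 wild type arrays among them, which limits the difference it can show. Before the floor was set, it read 0.0419 to 0.0469 in knockout and 0.0101 to 0.0103 in wild type cells at 12 h. At 24 h it read 0.0257 to 0.0467 in knockout and 0.00886 to 0.00991 in wild type cells.

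**Figure D2:**
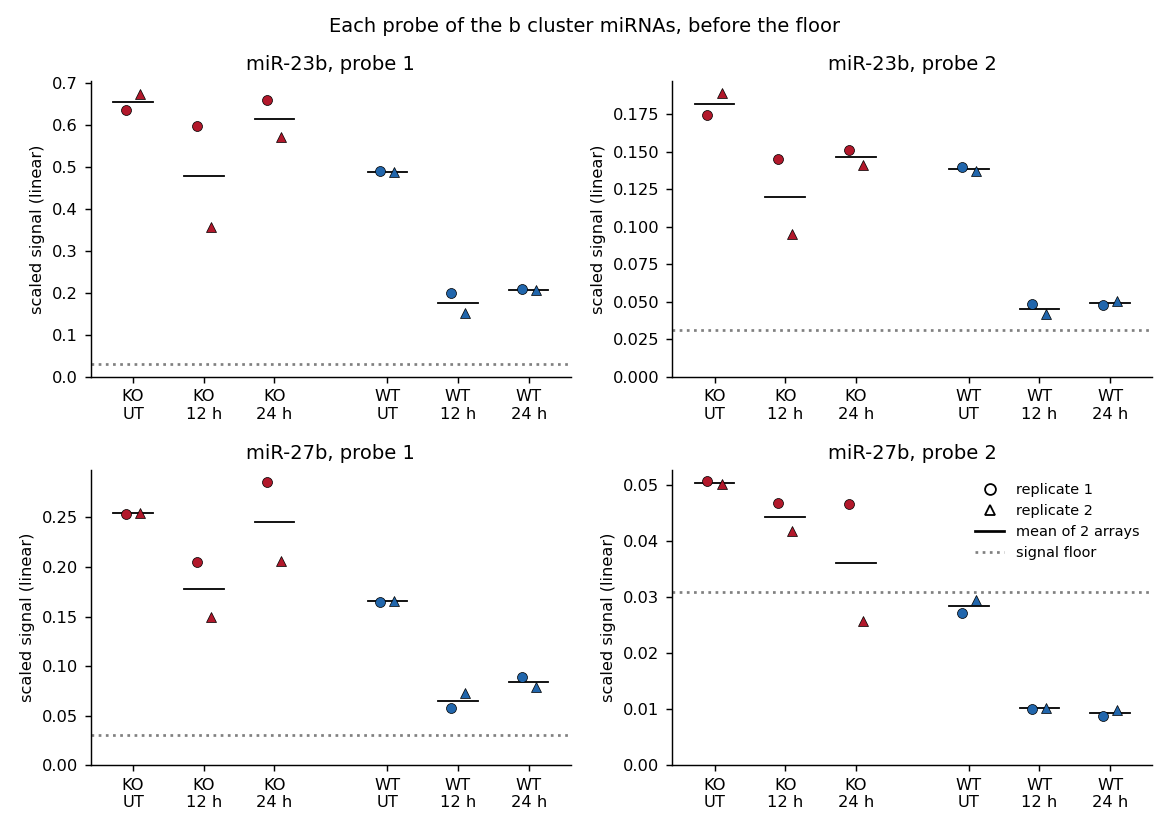
Scaled signal on a linear axis, before the floor, of the brighter (probe 1) and dimmer (probe 2) probe of miR-23b and miR-27b, for untreated (UT), 12 h and 24 h knockout (KO, red) and wild type (WT, blue) arrays; circles and triangles are replicates 1 and 2, bars are means of 2 arrays and the dotted line is the floor of 0.0309. All 6 wild type arrays of the dimmer miR-27b probe lie under the floor, whereas both miR-23b probes stay above it on all 12 arrays.

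miR-23a is the a cluster's form of miR-23. In knockout cells it stood at 0.079 and 0.21 untreated, 0.22 and -0.19 at 12 h, and 0.34 and -0.032 at 24 h. Its wild type values were -0.23 and -0.21 untreated, 0.21 and 0.14 at 12 h, and 0.43 and 0.24 at 24 h. The genotypes overlapped at both treated times, and the untreated knockout arrays lay above the untreated wild type arrays. The genotype difference was 0.36 ± 0.17 untreated, -0.16 ± 0.17 at 12 h and -0.18 ± 0.17 at 24 h, none past the threshold (adjusted p = 0.177, 0.791 and 0.665 by limma). The untreated difference passed with the scanning run as a fixed block (limma, adjusted p = 0.0458) and with only the groups compared (limma, adjusted p = 0.0192).

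miR-27a is the a cluster's form of miR-27. In knockout cells its values were 0.15 and 0.32 untreated, 0.50 and -0.24 at 12 h, and 0.48 and 0.12 at 24 h. Its wild type values were -0.0047 and -0.11 untreated, 0.15 and 0.26 at 12 h, and 0.36 and 0.40 at 24 h. Treated arrays of the genotypes overlapped, and the treated knockout replicates stood farther apart than the wild type ones. The differences were 0.29 ± 0.23 untreated, -0.075 ± 0.23 at 12 h and -0.081 ± 0.23 at 24 h, with limma adjusted p-values of 0.451, 1 and 1.

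miR-24 comes from both clusters. In knockout cells it stood at 0.30 and 0.22 untreated, 0.12 and -0.55 at 12 h, and 0.13 and -0.23 at 24 h. Wild type cells had -0.088 and -0.16 untreated, 0.022 and -0.60 at 12 h, and -0.061 and -0.30 at 24 h. Within each treated group the second array was the lower one, and the genotypes overlapped there. The genotype difference was 0.39 ± 0.27 untreated, 0.072 ± 0.27 at 12 h and 0.13 ± 0.27 at 24 h, with limma adjusted p-values of 0.379, 1 and 0.956.

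Counted together, 1 of the 5 members was higher in untreated knockout cells, miR-27b, against 28% of all tested miRNAs called in either direction and 3.43% called higher. The brighter miR-27b probe alone did not give this call. At 12 h, 2 were higher and none lower, miR-23b and miR-27b, where 7.43% of tested miRNAs were called and 3.43% were higher. At 24 h the same 2 were higher, where 9.71% were called and 4.57% were higher. In untreated cells the knockout arrays of all 5 members lay above the wild type arrays, as did those of 21.1% of tested miRNAs. Both b cluster members lay above wild type without overlap in all 3 conditions, which 5 of the 175 tested miRNAs did (2.86%). At 12 h alone 6.86% of tested miRNAs lay above wild type in this way, and at 24 h 17.7%.

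Averaged with equal weight over the 3 conditions, miR-23b was 1.12 ± 0.12 (limma, adjusted p = 0.000485) and miR-27b 0.85 ± 0.10 (limma, adjusted p = 0.000691) higher in knockout cells. For miR-23b this is 2.18-fold, and for miR-27b the brighter probe alone gave 1.20 (limma, adjusted p = 0.000344). By the same average 34.3% of tested miRNAs were called and 7.43% were higher, and the median difference was 0.20 over the 5 members and -0.054 over all tested miRNAs. The average for miR-23a was 0.0088 ± 0.096 with a 95% interval of -0.22 to 0.23. For miR-27a it was 0.045 ± 0.13 with an interval of -0.27 to 0.36, and for miR-24 it was 0.20 ± 0.16 with an interval of -0.17 to 0.57. These intervals leave room for small genotype differences and do not reach the averages of miR-23b and miR-27b. Across arrays of replicate 1 and of replicate 2 taken apart, the miR-23b average was 1.20 and 1.05, and that of miR-27b 1.01 and 0.70.

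The calls for genotype did not hold under every processing. With scaling on all probes, quantile normalization, the scanner software's summed signal, the authors' deposited table or normexp background correction, the average miR-23b difference was 0.45 to 1.66 and that of miR-27b 0.15 to 1.50. Neither passed the threshold in any of these 5 settings (limma, adjusted p = 0.0994 to 0.991 for miR-23b and 0.132 to 0.991 for miR-27b). The settings are unlike: all-probe scaling takes in probes near background, and the deposited table is not scaled between arrays. For miR-23b these gave 0.95 and 1.66. The lowest values, 0.45 and 0.15, came with normexp, whose offset of 50 shrinks log2 differences of dim probes. With only the 4 arrays compared in the fit, miR-23b (limma, adjusted p = 0.392) and miR-27b (limma, adjusted p = 0.234) did not pass at 12 h, nor did miR-27b at 24 h (limma, adjusted p = 0.197). In untreated cells that fit called 4 members, all but miR-27a, with miR-23b at an adjusted p of 0.00927 (limma). Leaving out single arrays ended some calls in single conditions. Without the second wild type array at 12 h, neither miR-23b (1.24; limma, adjusted p = 0.0555) nor miR-27b (1.06; limma, adjusted p = 0.0616) passed at 12 h, and without the first miR-27b did not (0.89; limma, adjusted p = 0.096). At 24 h miR-27b did not pass without the first (0.96; limma, adjusted p = 0.0606) or the second wild type array (0.87; limma, adjusted p = 0.0997). In untreated cells it did not pass once any 1 of the 4 untreated arrays was left out (0.66 each time; limma, adjusted p = 0.104 to 0.120). The averages over conditions passed without any 1 of the 12 arrays.

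**Figure D3:**
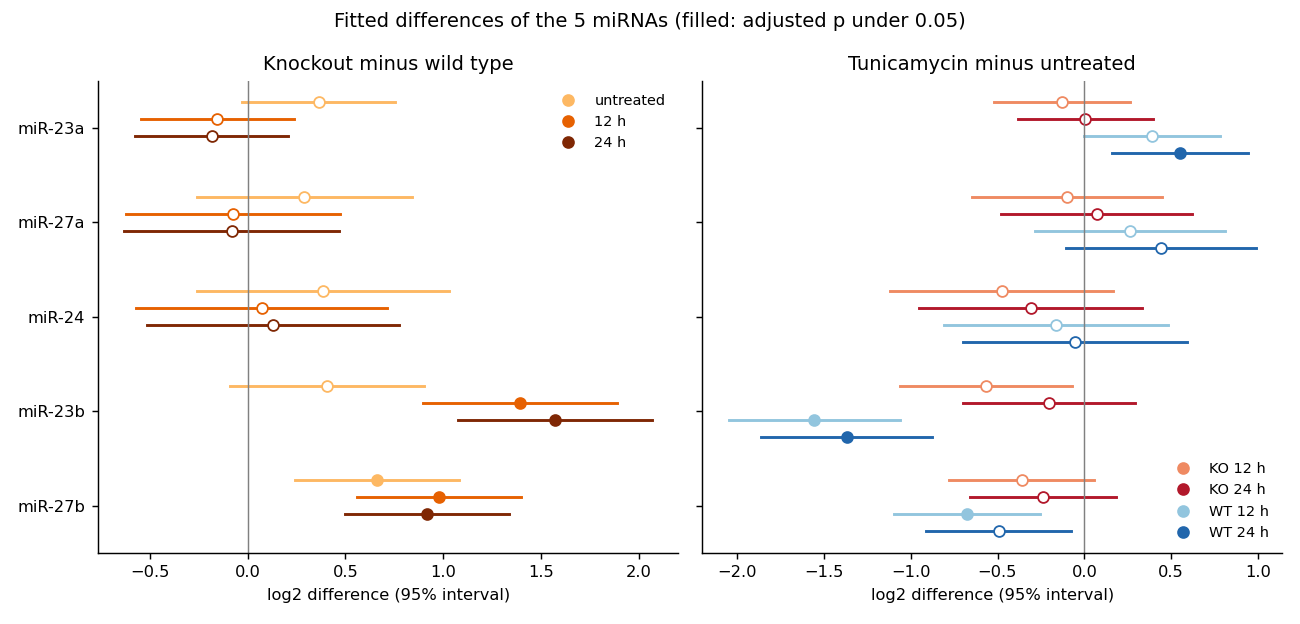
Fitted log2 differences of the 5 miRNAs (points) with 95% intervals (lines), filled where the adjusted p was under 0.05; the left panel shows knockout minus wild type in untreated, 12 h and 24 h cells and the right panel tunicamycin minus untreated in knockout (KO) and wild type (WT) cells. The miR-23b intervals at 12 and 24 h lie above 0 on the left. On the right its wild type intervals lie below 0, and so does its 12 h knockout interval, which was not called.

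The ratio of a b cluster miRNA to its a cluster relative on the same array is less open to the scaling of whole arrays than either value alone, though the floor is set after scaling, and it was used to compare the clusters by genotype. Its level mixes the brightness of different probes, so it is read between arrays alone. The log2 ratio of miR-23b over miR-23a was -1.67 and -1.70 in untreated, -1.98 and -2.26 in 12 h, and -2.001 and -1.78 in 24 h knockout cells. The wild type ratio was -1.71 and -1.74 untreated, -3.55 and -3.79 at 12 h, and -3.75 and -3.54 at 24 h. The genotypes stood side by side in untreated cells, and both treated times separated them widely. The genotype difference was 0.042 untreated, 1.55 at 12 h and 1.75 at 24 h. The average was 1.11, a 2.17-fold higher ratio in knockout cells (exact two-sided permutation of genotype within conditions, p = 0.00926, adjusted p over the pair of ratios = 0.0185).

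For miR-27b over miR-27a the log2 ratio was -3.29 and -3.46 in untreated, -3.85 and -3.42 in 12 h, and -3.60 and -3.77 in 24 h knockout cells. The wild type ratio was -3.80 and -3.69 untreated, -4.71 and -4.66 at 12 h, and -4.62 and -4.75 at 24 h. Here the untreated arrays were also apart, and the treated wild type arrays were again the lowest. The genotype difference was 0.37 untreated, 1.05 at 12 h and 1.00 at 24 h. The average was 0.81 (exact two-sided permutation, p = 0.00926, adjusted p = 0.0185), and 0.00926 is the smallest p that these arrangements can give. These values include the dimmer miR-27b probe, which was admitted by its untreated knockout signal and lay at the floor on every wild type array. With the brighter probe of each miRNA alone, the average was 1.14 (exact permutation, p = 0.00926) and the untreated difference 0.28. The differences behind this ratio and those of the single members come from the same arrays, so they are not separate evidence.

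The average ratio difference was 1.12 and 1.11 for miR-23 in replicates 1 and 2, and 0.80 and 0.82 for miR-27. Over the 4 pairings of a b cluster probe with an a cluster probe, chosen after the data were seen, it was 1.101 to 1.13 for miR-23 and 0.45 to 1.16 for miR-27, where the low values belong to the probe at the floor. In 4 of the 5 settings in which the single members lost their calls, both ratios passed the exact permutation test. Apart from the floor, all-probe scaling leaves a ratio as it was, and the deposited table holds log2 of the summed signal. These passes are therefore not separate support. With normexp background correction the miR-23 ratio fell to 0.45 (exact permutation, p = 0.0833) and the miR-27 ratio to 0.11 (exact permutation, p = 0.583). This correction adds an offset of 50 to each spot before scaling, which shrinks log2 differences of dim probes. The part of the offset in the fall was not tested. Both ratios passed without any 1 of the 12 arrays. The permutation takes the arrays of a condition as exchangeable, although same-numbered arrays deviated together. With genotype permuted within replicate numbers as well, each ratio had p = 0.0312 (exact permutation).

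**Figure D4:**
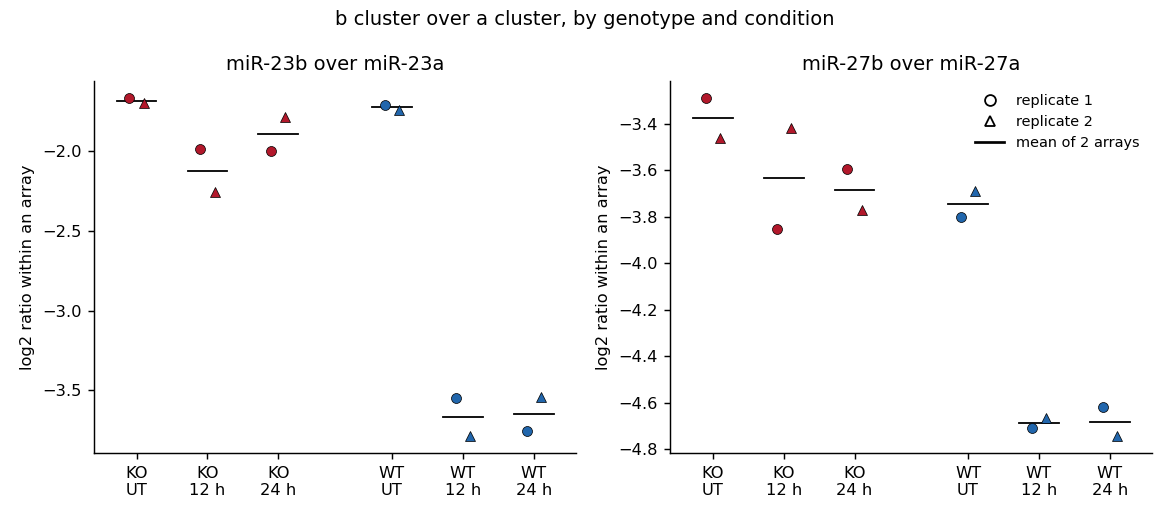
Within-array log2 ratio (vertical axis) of miR-23b over miR-23a and of miR-27b over miR-27a on each array, for untreated (UT), 12 h and 24 h knockout (KO, red) and wild type (WT, blue) cells; circles and triangles are replicates 1 and 2 and bars are means of 2 arrays. The 4 treated wild type arrays lie below every other array in both panels, and untreated genotypes differ by 0.042 for miR-23 and 0.37 for miR-27.

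The tunicamycin response is given for each genotype from the same values. In wild type cells miR-23b fell by 1.55 ± 0.21 on the log2 scale at 12 h (limma, adjusted p = 0.00123), or 2.94-fold. At 24 h it fell by 1.37 ± 0.21 (limma, adjusted p = 0.00193), or 2.58-fold. miR-27b fell by 0.68 ± 0.18 at 12 h (limma, adjusted p = 0.0178) and differed by -0.49 ± 0.18 at 24 h (limma, adjusted p = 0.0609). Its dimmer probe lay at the floor on every wild type array and adds a fixed 0 to these values, and the brighter probe alone gave -1.35 and -0.99, both past the threshold (limma, adjusted p = 0.00242 and 0.00897). miR-23a differed by 0.39 ± 0.17 at 12 h (limma, adjusted p = 0.0951) and rose by 0.55 ± 0.17 at 24 h (limma, adjusted p = 0.0324). miR-27a differed by 0.26 ± 0.23 and 0.44 ± 0.23, and miR-24 by -0.16 ± 0.27 and -0.055 ± 0.27, none past the threshold. So 2 of 5 members were lower at 12 h, against 44.6% of tested miRNAs called and 38.3% lower. At 24 h 1 was lower and 1 higher, against 41.1% called, 33.7% lower and 7.43% higher. The fibroblast and mesenchymal markers moved with treatment as well. The summed scaled signal of the 6 was 26.8 to 28.3 untreated, 13.9 to 21.3 at 12 h and 17.99 to 20.5 at 24 h in knockout cells, against 31.1 to 33.5, 15.0 to 15.8 and 16.4 to 17.7 in wild type cells, and its part in the responses was not tested.

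In knockout cells miR-23b differed from untreated cells by -0.57 ± 0.21 at 12 h and -0.20 ± 0.21 at 24 h, with adjusted p-values of 0.120 and 0.703 by limma. miR-27b differed by -0.36 ± 0.18 and -0.24 ± 0.18, and miR-24 by -0.48 ± 0.27 and -0.31 ± 0.27. miR-23a differed by -0.13 ± 0.17 and 0.0061 ± 0.17, and miR-27a by -0.10 ± 0.23 and 0.070 ± 0.23. None of the 5 members was called by limma at either time, where 17.1% of tested miRNAs were called at 12 h and 10.3% at 24 h. At an unadjusted p under 0.05 there was 1 member at 12 h, miR-23b, and 0 at 24 h. Without the first knockout array at 12 h, miR-23b did pass there (-0.91; limma, adjusted p = 0.00404). The knockout replicates at 12 h were farther apart for miR-23b, at an SD of 0.48, than the wild type replicates, at 0.22.

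The difference between these responses, knockout minus wild type, was tested as an interaction. For miR-23b it was 1.17 ± 0.30 at 24 h (limma, adjusted p = 0.045). At 12 h it was 0.99 ± 0.30 and short of the threshold (limma, adjusted p = 0.0976). For miR-27b it was 0.26 ± 0.25 at 24 h and 0.31 ± 0.25 at 12 h, neither past the threshold (limma, adjusted p = 0.593 and 0.561). The floor enters here too: its brighter probe alone gave 0.92 and 0.82, neither past the threshold (limma, adjusted p = 0.103 and 0.194). In the a cluster the values were -0.55 ± 0.23 and -0.52 ± 0.23 for miR-23a and -0.37 ± 0.33 and -0.37 ± 0.33 for miR-27a, and none of these passed. The 24 h call of miR-23b was 1 of 5 members, against 13.1% of tested miRNAs called and 10.3% higher, and at 12 h 0 of 5 were called by limma (1, miR-23b, at an unadjusted p under 0.05), against 9.71%. That call was lost in 20 of 27 alternatives, over which the difference was 0.21 to 1.40. It was lost without any 1 of 10 arrays, all but the 12 h knockout arrays, with a difference of 1.09 to 1.24 (limma, adjusted p = 0.0569 to 0.144). The 12 h value passed without the second 12 h knockout array (1.33; limma, adjusted p = 0.0041).

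The calls in wild type cells also moved when single arrays were left out. At 12 h the fall of miR-27b did not pass without either untreated wild type array (-0.68 and -0.67; limma, adjusted p = 0.0794 and 0.0732) or without the first 12 h array (-0.59; limma, adjusted p = 0.0859). At 24 h the rise of miR-23a did not pass without either of the untreated, 12 h or 24 h wild type arrays or either untreated knockout array (0.46 to 0.64; limma, adjusted p = 0.0505 to 0.148). Leaving out either 12 h knockout array brought miR-23a at 12 h (0.39; limma, adjusted p = 0.0462), miR-27a at 24 h (0.44; limma, adjusted p = 0.0302) and miR-27b at 24 h (-0.49; limma, adjusted p = 0.0491) past the threshold. Leaving out either 24 h knockout array did so for miR-27b at 24 h (-0.49; limma, adjusted p = 0.0152). The fall of miR-23b passed at both times without any 1 of the 12 arrays, but with the 5 other scaling, summary and background settings it passed in 1 at 12 h and in 0 at 24 h. Its value there was -1.97 to -0.71 at 12 h (limma, adjusted p = 0.0374 to 0.622) and -2.03 to -0.37 at 24 h (limma, adjusted p = 0.051 to 0.992).

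Members of 1 cluster had more similar values over the arrays than relatives in different clusters. Over the 12 arrays the log2 values of miR-23b and miR-27b had a Pearson r of 0.93, and those of miR-23a and miR-27a an r of 0.88. Across clusters r was -0.31 for miR-23a with miR-23b and 0.088 for miR-27a with miR-27b, although miR-27a and miR-27b share all but 1 base. miR-24, which both clusters make, had r of 0.36 with miR-23a, 0.41 with miR-27a, 0.59 with miR-23b and 0.58 with miR-27b. These values describe 12 arrays that share scaling, slides and scanning runs, and carry no test.

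Outside the clusters, the tested miRNAs with the most similar values over the 12 arrays were miR-378 (r = 0.94), miR-10b (r = 0.91) and miR-34a (r = 0.88) for miR-23b. For miR-27b they were miR-378 (r = 0.98), miR-10b (r = 0.89) and miR-29b (r = 0.86). miR-378 and miR-10b thus head both b cluster lists. With miR-378 each b cluster member had a higher r than the 0.93 between miR-23b and miR-27b, so their likeness is not particular to the cluster. For miR-23a the closest were miR-20a (r = 0.80), miR-19a (r = 0.74) and miR-19b (r = 0.71), members of the miR-17 to miR-92 cluster families. For miR-27a they were let-7d (r = 0.84), let-7f (r = 0.82) and miR-17* (r = 0.77), and for miR-24 they were miR-29c (r = 0.82), miR-29a (r = 0.81) and miR-106b (r = 0.79).

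The passenger strands of the hairpins were at the edge of detection. Of 6 such strands, 4 had probes on the array, and the probes of miR-27a* and miR-27b* were well above background on no array. miR-24-1*, the strand that marks the b cluster's miR-24 hairpin, had a brighter probe with scaled signals of 0.0337 and 0.0373 in untreated knockout cells, against 0.0280 and 0.0228 in untreated wild type cells. Knockout minus wild type was 0.20 ± 0.065 in untreated cells and was not called (limma, adjusted p = 0.0603). All values of that probe but the untreated knockout ones were set to the floor and add no spread. The SE and p are therefore given no weight. That probe was tested only because it was well above background on both untreated knockout arrays, which no other group met. No bound on the difference is therefore read from it. The other miR-24-1* probe was well above background on no array. At 24 h the brighter miR-24-1* probe read 0.0249 to 0.0289 in knockout and -0.003 to 0.0045 in wild type cells. At 12 h it read 0.0084 to 0.0247 in knockout and 0.0049 to 0.0062 in wild type cells. These treated signals lie under the floor and have no fold. miR-24-2* of the a cluster had a brighter probe at 0.0264 and 0.0326 in untreated knockout and 0.0239 and 0.0215 in untreated wild type cells. Of the knockout values 1 lay under the floor, and this probe too was tested only through the untreated knockout arrays.

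A list of 25 miRNAs linked to the unfolded protein response gives the surroundings of these changes, and 14 of them were tested. In knockout against wild type cells averaged over conditions, 2 were higher and 2 lower, where 34.3% of all tested miRNAs were called, with a list median of 0.084 against -0.054 over all tested miRNAs. miR-96 was lower by -0.86 ± 0.055 (limma, adjusted p = 5.05e-05) and miR-322 by -0.87 ± 0.079 (limma, adjusted p = 0.000266), while miR-34a, a target of p53, was higher by 0.29 ± 0.060 (limma, adjusted p = 0.00793). In wild type cells 5 of the 14 were lower and 0 higher at 12 h, against 38.3% of all tested miRNAs lower, and 6 were lower and 1 higher at 24 h, against 33.7% lower. In knockout cells 5 were lower at 12 h and 4 at 24 h, with 0 higher at either time. There 17.1% and 10.3% of all tested miRNAs were called in either direction, so these shares are not the matching ones for lower calls.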

How the data were processed

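Per the submitters' processing notes, spot intensities were written by Agilent Feature Extraction 10.7.1.1. They were deposited on a linear scale, background-subtracted and unscaled between arrays, per the file headers. The authors' deposited table is on the log2 scale: its 2034 compared values lay within 1.54e-06 of log2 of the summed signal in the scanner files. Genotype, treatment and replicate came from the labels, and slides and scanning runs from the file headers.

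Of 13715 spots per array, 715 control spots and outlier spots were left out, and none was saturated. Spots were averaged to 1857 probes of 650 miRNAs. A probe was taken as well above background where more than 0.5 of its spots carried that mark, and 87 probes were so on all arrays. Their 75th percentile scaled each array. Scaled signals under 0.0309 (the lowest detected scaled signal of an array, at its median across arrays) were set to that floor before log2. For each miRNA, probes detected in both replicates of some group were averaged, leaving 175 miRNAs. The fit over 6 group means used limma 3.58.1 (R 4.3.3), with 6 residual and 1.16 prior degrees of freedom, and was tested on simulated data. Ratios were tested by exact permutation. Named miRNAs were the 5 members, their passenger strands, the 3 most correlated miRNAs of each member, and up to 3 called miRNAs of the unfolded protein response list. Alternatives covered scaling, background correction, filter, floor, probes, blocks and arrays left out. normexp used the median spot signal with an offset of 50. The members and lists were chosen with earlier results of these data known. The number of arrays limits the precision.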

Additional observations from a re-analysis of the deposited data

Results flagged for a closer look

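The response of miR-23b to 24 h of tunicamycin differed between the genotypes by a test of the difference itself, 1.17 ± 0.30 on the log2 scale, knockout minus wild type (limma, adjusted p = 0.045). The response was -0.20 ± 0.21 in knockout cells and -1.37 ± 0.21 in wild type cells, with 2 arrays per group, and both treated arrays lay below both untreated arrays in each genotype. The call was lost in 20 of 27 alternatives, 10 of them single arrays left out, with a difference of 0.21 to 1.40 over all 27. It was kept with the scanning run as a random block (1.17; limma, adjusted p = 0.0202) or as a fixed block (1.17; limma, adjusted p = 0.0425). Treatment cannot be told apart from slide, nor genotype from position on the slide.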

How the results depend on the processing

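No called difference of the 5 members changed sign, and every change of direction was in one that passed the threshold neither before nor after. For genotype, in the order untreated, 12 h, 24 h and average, the number of members called for genotype, 1, 2, 2 and 2, became 0, 0, 0 and 0 in each of 5 settings, namely all-probe scaling, quantile normalization, the summed signal, the deposited table and normexp background correction. It became 0, 1, 1 and 1 with only probes well above background on all 12 arrays, where miR-27b has no value, and 0, 0, 1 and 2 with no filter. In untreated cells it was also 0 with the floor doubled or with the brightest probe, 2 with the scanning run as a fixed block, where miR-23a joined miR-27b, and 4 with only the groups compared or without the 4 second treated arrays. With only the groups compared it was 0 at 12 h and 1 at 24 h, and without the 4 second treated arrays the average gave 4, with miR-27a at 0.25 and miR-24 at 0.22. The average differences of miR-23b and miR-27b were 0.95 and 0.82 with all-probe scaling, 0.99 and 0.77 with quantile normalization, 1.17 and 1.43 from summed signals, 1.66 and 1.50 in the deposited table, and 0.45 and 0.15 with normexp, all short of the threshold. The ratio differences were 0.45 and 0.11 with normexp. Without the 4 second treated arrays they were 1.12 and 0.75, where 24 arrangements allow no exact permutation p below 0.0833. In wild type cells the count at 12 h, 2, was 3 with only the groups compared, where miR-23a passed (0.39; limma, adjusted p = 0.0171), 1 with the strict probe filter, with no filter and with the summed signal, and 0 with all-probe scaling, with quantile normalization, in the deposited table and with normexp. At 24 h, 2 became 1 with no filter, 4 with only the groups compared or without the 4 second treated arrays, and 0 in the 5 scaling and background settings. Without those arrays it was 1 for knockout cells at 12 h, 2 for the difference of 12 h responses (1 with the scanning run as a random block) and 3 for that at 24 h. The 24 h count was 0 with the floor halved or doubled, the brightest probe, the strict filter, no filter and the 5 scaling and background settings.

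Differences that changed sign, in none of these cases called, were the following. With all-probe scaling, knockout minus wild type of miR-24 was -0.20 at 12 h and -0.31 at 24 h, and the averages of miR-23a and miR-27a were -0.080 and -0.044. In the same setting the wild type responses were -0.28 and -0.41 for miR-23a and miR-27a at 12 h and 0.088 for miR-24 at 24 h, the 24 h knockout responses of miR-23a and miR-27a were -0.74 and -0.67, and the response differences of miR-27b were -0.41 and -0.28 at 12 and 24 h. With quantile normalization miR-24 at 12 h was -0.19, the averages of miR-23a and miR-27a -0.081 and -0.067, the 24 h knockout response of miR-23a -0.013 and the 12 h response difference of miR-27b -0.057. With the summed signal miR-24 at 12 h was -0.040, the averages of miR-23a and miR-27a -0.068 and -0.023, and their 24 h knockout responses -0.22 and -0.17. In the deposited table knockout minus wild type of miR-23a and miR-27a was 0.12 and 0.16 at 12 h and 0.34 and 0.48 at 24 h, the 24 h wild type response of miR-27a -0.11, and the 24 h knockout responses of miR-23a and miR-27a -0.47 and -0.41. With normexp the 24 h responses of miR-27b were 0.19 in knockout and 0.11 in wild type cells. With the brightest probe the average of miR-23a was -0.00019 and its 12 h knockout response 0.045. Without the 4 second treated arrays knockout minus wild type was 0.010 for miR-23a and 0.36 for miR-27a at 12 h and 0.12 for miR-27a at 24 h. There the knockout responses were 0.074 for miR-23a and 0.27 for miR-27a at 12 h and 0.028 for miR-27b at 24 h, the wild type responses of miR-24 were 0.15 at 12 h and 0.064 at 24 h, and the 12 h response difference of miR-27a was 0.066.

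Leaving out each array in turn gave 0 to 2 members called for genotype in untreated and in 12 h cells, 1 to 2 at 24 h, 1 to 3 and 1 to 4 for the wild type responses at 12 and 24 h, 0 to 1 for the 12 h knockout response and 0 to 1 for each response difference. Knockout minus wild type ranged at 12 h from -0.36 to 0.047 for miR-23a, -0.45 to 0.30 for miR-27a and -0.26 to 0.40 for miR-24. At 24 h the ranges were -0.37 to 0.0022, -0.26 to 0.099 and -0.053 to 0.31, and the averages of miR-23a and miR-27a were -0.059 to 0.076 and -0.079 to 0.17. The wild type responses of miR-24 were -0.47 to 0.15 at 12 h and -0.17 to 0.064 at 24 h. The knockout responses were -0.33 to 0.074 and -0.18 to 0.19 for miR-23a, -0.47 to 0.27 and -0.11 to 0.25 for miR-27a at 12 and 24 h, and -0.51 to 0.028 for miR-27b at 24 h. Response differences were -0.74 to 0.0072 for miR-27a and -0.65 to 0.018 for miR-24 at 12 h, and -0.011 to 0.52 for miR-27b at 24 h. A group left with 1 array is assumed to vary like the others. A fit with the replicate number as a block changed no call, with averages of 1.12 (limma, adjusted p = 0.000748) for miR-23b and 0.85 (limma, adjusted p = 0.00121) for miR-27b, and ratio differences of 1.11 and 0.81 (exact permutation, p = 0.0312 for both). Same-numbered arrays deviated together within the treated groups (correlations of 0.82 to 0.94) and within the untreated groups (0.74), and oppositely between them (-0.66 to -0.45), so the numbers do not pair arrays across slides. Fixed scanning runs could not be fitted for the treatment comparisons, in which each run holds treated or untreated arrays alone. The cause of these changes was not tested. Signal over background limits miR-27b and the passenger strands.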

Other observations

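In the authors' deposited table the passenger strands of miR-24 had values close to those of miR-24 itself on some arrays and not on others. In untreated knockout cells the authors' deposited table gives log2 values of 4.09 and 4.14 for miR-24-2*, against 8.91 and 9.04 in untreated wild type cells. For miR-24 itself the authors' deposited table gives 9.99 and 9.58 in those knockout cells and 8.87 and 9.01 in those wild type cells. For miR-24-1* the authors' deposited table gives 10.01 and 4.07 in untreated knockout cells and 8.89 and 9.02 in untreated wild type cells. On the same 4 arrays the brighter miR-24-2* probe had scaled signals of 0.0264 and 0.0326 in knockout cells, against 0.0239 and 0.0215 in wild type cells, so the deposited values and the probe signals order the genotypes in opposite ways. The cause was not tested.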
